A study of Mus musculus with 15 samples.

Results

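The genes described here are the AP-1 transcription factors and their close relatives in mouse retina: the JUN family (Jun, Junb, Jund), the FOS family (Fos, Fosb, Fosl1, Fosl2), Atf3, Atf2 and Creb5. They were taken by symbol from the deposited gene tables, 10 of 54532 genes, and all 10 had enough counts to be tested. The tables hold 15 libraries of whole retina from C57BL/6 mice of wild type genotype, 3 in each of 5 groups. Mice of 4 groups had both optic nerves crushed behind the eyeball with forceps (optic nerve crush, ONC), which injures the axons of the retinal ganglion cells (RGCs), and retinas were collected 2 days later. ONC-F mice were also needled at acupoint GB20 (Fengchi), ONC-J mice at BL1 (Jingming) and ONC-S mice at GV16 (Fengfu), which served as the sham point. ONC mice had the crush alone, and WT mice were naive and had neither. Needling was given 3 times at each of the 3 points. The methods describe the needling, and the xylazine and ketamine anesthesia before it, for GB20 and BL1 only, and do not say whether ONC mice were anesthetized again. The labels give an age of 5 weeks and the methods 6 weeks. The methods divide the mice into 4 groups of 3 mice, although the tables hold 5 groups, and say that experiments were repeated 3 times. They call the 3 libraries of a group biological replicates. How many mice went into each library, and which libraries belong to the same repeat, is not given in the sources used here. Every n is therefore a number of libraries, and the p-values measure the spread between libraries.

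AP-1 is a family of dimers of basic leucine zipper (bZIP) proteins, in which a JUN protein pairs with another JUN, a FOS protein or a relative such as ATF2 or ATF3, and the choice of partner sets which DNA element is bound and whether the gene is switched on or off. JUN and FOS proteins pair mainly on the AP-1 element, whereas pairs with ATF proteins favor the cyclic AMP response element (CRE). In neurons with a cut axon, the kinases DLK and JNK signal from the axon to the nucleus and phosphorylate c-Jun and ATF2, and c-Jun and ATF3 are known for roles in both RGC death and axon regrowth.

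Total counts ran between 14482435 and 26112762 per library. The summed level of 17 RGC markers was 701 to 752 CPM (counts scaled to library size) in ONC, 718 to 878 CPM in ONC-F, 740 to 754 CPM in ONC-J and 729 to 752 CPM in ONC-S, against 1080 to 1130 CPM in WT, with 0 markers undetected. In whole retina, fewer cells of a type and less RNA per cell cannot be told apart. The sum of 13 lens markers was 3.89 to 121 CPM in the other libraries and 2832 CPM in WT 1, and calls against WT that were lost without WT 1 are named below. ONC-S stood apart from the other crushed groups, with 2791 genes differing from ONC, against 1 gene for ONC-F and 24 for ONC-J. The sample numbers of ONC-S form a block apart from those of all other groups. Whether its libraries were made or sequenced separately is not stated, and such a difference cannot be told apart from needling at GV16. The rod marker Sag, a visual arrestin, had 486 to 544 FPKM in ONC-F, 467 to 528 FPKM in ONC-J, 560 to 597 FPKM in ONC-S and 414 to 472 FPKM in ONC, against 433 to 438 FPKM in WT. The sum of 8 markers of the retinal pigment epithelium (RPE), the layer that lies against the photoreceptors, was 119 to 199 CPM in ONC-F, 134 to 180 CPM in ONC-J, 63.3 to 99.3 CPM in ONC-S and 88.5 to 147 CPM in ONC, against 71.1 to 153 CPM in WT.

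The start-site regions of the members were searched for the elements that these factors bind, because Jun and Atf3 are known to be controlled in part by their own family. RefSeq windows in GRCm38.p6 that begin 250 bases before a start site and end 50 after it were found for 9 members, with 2 windows for Creb5 and none for Fosl1. On both strands they were searched for the AP-1 element TGANTCA, the full CRE TGACGTCA, the CRE with 1 free base TGACNTCA, which includes the full CRE, and the variant TTACNTCA. The last pattern was added after the sequences had been read. Of 32851 mouse promoter windows of the same length, 7.81% held TGANTCA, 1.79% TGACGTCA, 8.83% TGACNTCA and 3.3% TTACNTCA. Matches were found in Atf3, Jun and Creb5, and no match was found in Junb, Jund, Fos, Fosb, Fosl2 or Atf2. The only match in Atf3 was to TTACNTCA, the pattern added afterwards, so it is no test of that pattern. With the other patterns alone, matches were found in Jun and Creb5 only. The share of windows that held any of the patterns is not given here. The Jund window lies upstream of the annotated gene and not at its start. A CArG box, the element of serum response factor, which 1.63% of the windows held, was not found in any of the 10 windows. Bases further upstream were not searched, and elements spelled otherwise are missed. The lack of a match in Fos or another gene therefore does not show that it lacks such elements. The sequences below are the 250 bases before the start of the 3 genes with matches and, for comparison, of Fos. Capitals mark the matches, and a match describes the letters only.
Atf3, chr1:191183334-191183583, minus strand: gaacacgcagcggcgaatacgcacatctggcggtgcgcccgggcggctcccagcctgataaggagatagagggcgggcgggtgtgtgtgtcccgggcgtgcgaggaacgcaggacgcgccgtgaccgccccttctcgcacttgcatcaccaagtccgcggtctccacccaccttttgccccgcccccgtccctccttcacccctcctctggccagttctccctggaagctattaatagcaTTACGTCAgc
Jun, chr4:95052223-95052472, minus strand: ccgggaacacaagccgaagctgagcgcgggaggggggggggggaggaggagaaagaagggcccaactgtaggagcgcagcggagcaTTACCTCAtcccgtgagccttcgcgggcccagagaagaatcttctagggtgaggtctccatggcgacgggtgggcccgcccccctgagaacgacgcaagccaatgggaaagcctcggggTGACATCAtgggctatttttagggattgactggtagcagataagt
Creb5 window 1, chr6:53287053-53287302, plus strand: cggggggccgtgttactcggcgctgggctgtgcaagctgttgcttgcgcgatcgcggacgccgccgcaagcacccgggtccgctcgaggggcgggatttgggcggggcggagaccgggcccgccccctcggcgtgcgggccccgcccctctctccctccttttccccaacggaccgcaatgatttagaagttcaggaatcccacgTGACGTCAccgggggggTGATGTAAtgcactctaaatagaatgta
Creb5 window 2, chr6:53573124-53573373, plus strand: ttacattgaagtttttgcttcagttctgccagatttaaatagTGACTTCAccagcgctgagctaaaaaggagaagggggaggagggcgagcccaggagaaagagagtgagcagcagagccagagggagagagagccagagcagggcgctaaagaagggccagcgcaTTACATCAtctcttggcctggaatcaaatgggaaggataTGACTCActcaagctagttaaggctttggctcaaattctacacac
Fos, chr12:85473640-85473889, plus strand: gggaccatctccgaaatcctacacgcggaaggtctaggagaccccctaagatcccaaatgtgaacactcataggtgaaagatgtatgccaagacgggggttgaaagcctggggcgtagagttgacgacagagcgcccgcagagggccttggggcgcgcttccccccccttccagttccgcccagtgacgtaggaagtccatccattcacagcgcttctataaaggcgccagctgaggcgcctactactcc

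In Atf3 the variant lay 10 to 3 bases before a start site that is inside the annotated gene, since the annotated gene begins upstream of it. In Jun the sequence TGACATCA lay 45 to 38 bases before the start, and TTACCTCA 164 to 157 bases before it. Creb5 window 1, near the annotated 5′ end of the gene, held the full CRE 45 to 38 bases and a variant 28 to 21 bases before its start. Creb5 window 2, inside the gene, held an AP-1 element 45 to 39 bases before its start and both CRE variants further upstream.

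The comparison of ONC with WT asks what the crush does to these factors. Atf3, Jun, Creb5 and Fosl2 rose, and the other 6 members did not pass the test. Calls were made with edgeR at an adjusted p under 0.05 over all 19259 tested genes, of which 184 (0.955%) were higher and 223 (1.16%) lower in ONC. The median log2 fold change of the 10 members was 0.58, beside 0 for all tested genes. Atf3, Jun, Creb5 and Fosl2 also stand in the study's list of injury-induced transcription factors, which was picked from these libraries, so their direction is not independent evidence. The paper also measured Jun and Atf3 by quantitative PCR and reports both as higher after the crush. It does not say whether that RNA came from the same mice as the libraries.

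Of the JUN family, Jun rose after ONC. Jun, which encodes c-Jun, the main substrate of JNK, stood at 21.9, 24.0 and 21.5 FPKM (fragments per kilobase of transcript, scaled to library size) in ONC 1, 2 and 3, against 13.4, 13.8 and 15.7 FPKM in WT 1, 2 and 3. The groups did not overlap, and the log2 fold change was 0.65 with a standard error (SE) of 0.07 (adjusted p = 1.14e-05, edgeR). Its exons share 232 bases with Junos, an antisense RNA whose 11 to 56 counts per library are few beside the 862 to 2022 counts of Jun. Junb, a JUN protein that can oppose c-Jun, stood at 9.99, 19.1 and 11.8 FPKM in ONC and at 8.36, 9.14 and 11.0 FPKM in WT. Only ONC 2 was far above WT, ONC 1 lay within the WT range, and the log2 fold change of 0.51 (SE 0.24, adjusted p = 0.431, edgeR) did not pass. Jund, the JUN protein that many resting cells hold at a steady level, stood at 24.0, 22.0 and 21.7 FPKM in ONC and at 18.8, 18.4 and 22.1 FPKM in WT. WT 3 reached into the ONC range, and the log2 fold change was 0.19 (SE 0.09, adjusted p = 0.44, edgeR).

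Of the FOS family, Fosl2 rose and Fos, Fosb and Fosl1 did not pass. Fosl2, which encodes Fra-2, a FOS protein without the activation domain of c-Fos, stood at 1.27, 1.22 and 1.05 FPKM in ONC, against 0.781, 0.572 and 0.613 FPKM in WT. The groups did not overlap (log2 fold change 0.85, SE 0.13, adjusted p = 0.000711, edgeR). Fos, the immediate early gene whose RNA appears within minutes of a stimulus and is soon degraded, stood at 9.44, 14.4 and 10.9 FPKM in ONC and at 9.29, 7.89 and 18.7 FPKM in WT. The highest library of both groups was WT 3, and the log2 fold change was −0.05 (SE 0.28, adjusted p = 0.98, edgeR), which turned to 0.43 without WT 3. Fosb, a slower immediate early gene, stood at 0.829, 1.43 and 0.84 FPKM in ONC and at 0.602, 0.711 and 0.617 FPKM in WT. All 3 ONC libraries were above WT, but ONC 2 was far above the other ONC libraries, and the log2 fold change of 0.67 (SE 0.34, adjusted p = 0.494, edgeR) did not pass. Fosl1, which encodes Fra-1, stood at 4.49, 4.67 and 5.17 FPKM in ONC and at 3.56, 4.1 and 4.36 FPKM in WT. Its groups did not overlap, with a log2 fold change of 0.25 (SE 0.13, adjusted p = 0.532, edgeR). Of the 2033 annotated exon bases of Fosl1, 1163 also belong to Ccdc85b on the other strand, and no strand setting is given in the sources used here, so the Fosl1 values are uncertain.

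Among the ATF and CREB relatives, Atf3 had the largest change of the 10 members and Creb5 the next largest. Atf3, a stress-induced factor that pairs with c-Jun, stood at 12.4, 17.0 and 13.0 FPKM in ONC, against 2.2, 1.93 and 2.18 FPKM in WT. It rose 6.73-fold (log2 fold change 2.75, SE 0.16, adjusted p = 2.76e-09, edgeR), and the lowest ONC library was well above the highest WT library. Creb5, an ATF2 relative that binds the CRE, stood at 0.183, 0.218 and 0.2 FPKM in ONC, against 0.0948, 0.0927 and 0.0791 FPKM in WT. It rose 2.24-fold (log2 fold change 1.16, SE 0.17, adjusted p = 0.000279, edgeR) from a low level per length, with 88 to 97 counts per ONC library and 38 to 57 counts per WT library. Atf2, which JNK and p38 phosphorylate and which pairs with c-Jun, stood at 7.43, 7.57 and 7.73 FPKM in ONC and at 7.3, 7.51 and 7.4 FPKM in WT. These ranges overlapped, and the log2 fold change was 0.03 (SE 0.06, adjusted p = 0.923, edgeR).

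The calls of Atf3, Jun, Creb5 and Fosl2 in ONC against WT held under every alternative run, WT 1 left out included. Without 1 library at a time, the log2 fold change of Atf3 stayed between 2.59 and 2.84, that of Jun between 0.6 and 0.72, that of Creb5 between 1.09 and 1.23 and that of Fosl2 between 0.76 and 1.0.

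**Figure D1:**
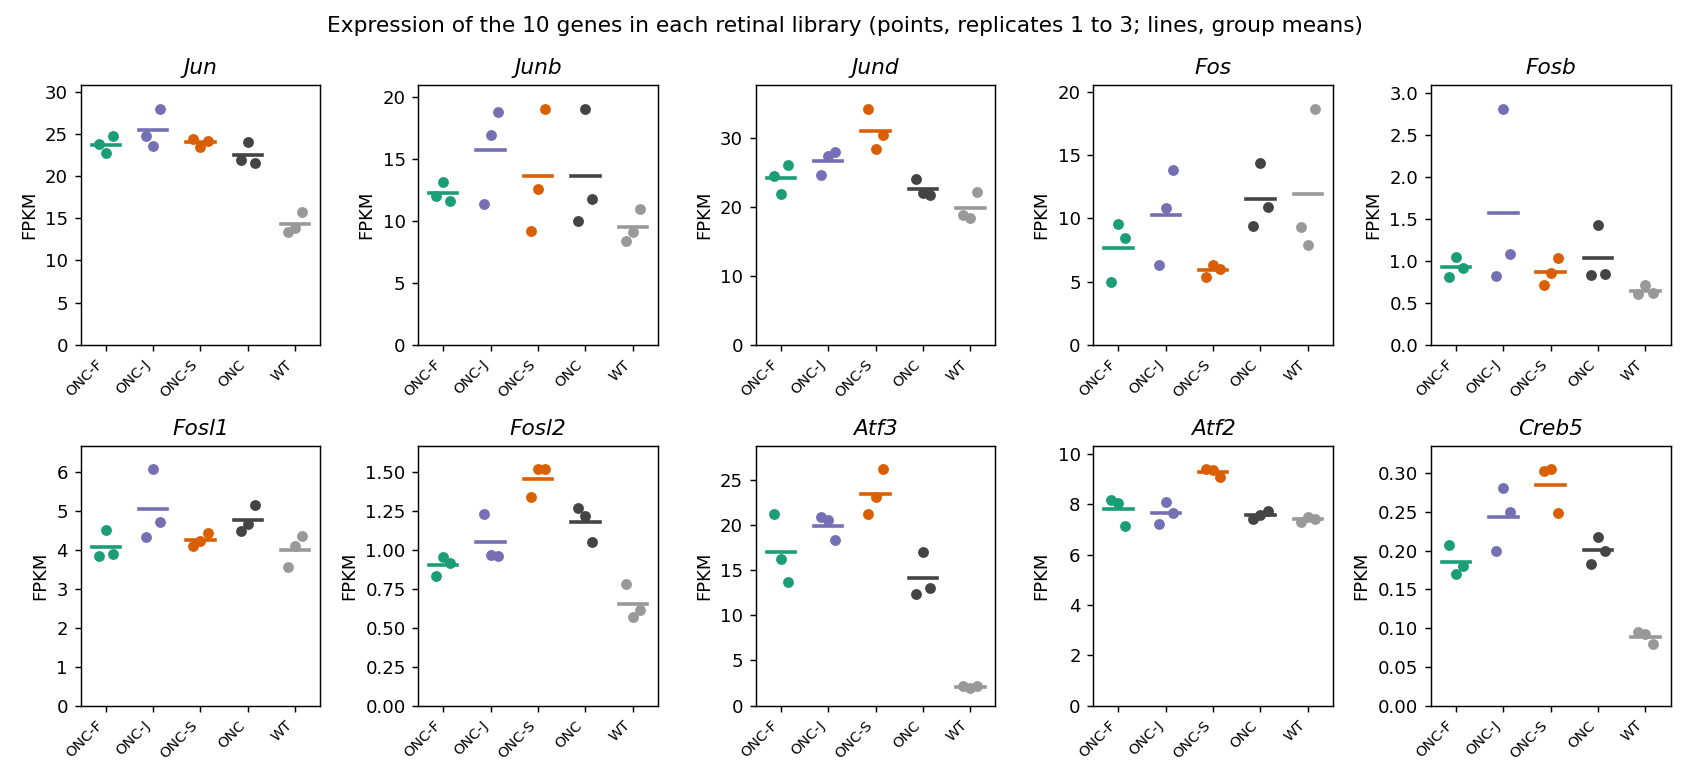
Expression in FPKM (vertical axes, each starting at 0) of the 10 members in ONC-F, ONC-J, ONC-S, ONC and WT retinas; points are the 3 libraries of a group and lines the group means. Atf3 lies between 12.4 and 26.2 FPKM in the crushed libraries and near 2 FPKM in WT, whereas Fos spreads between 7.89 and 18.7 FPKM within WT alone.

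The needled groups were then compared with WT, to see whether the crush response was present in them too; these 3 comparisons share the WT libraries with ONC against WT. Atf3, Jun and Creb5 rose in all 3 needled groups. Atf3 stood at 21.2, 16.3 and 13.7 FPKM in ONC-F, at 20.9, 20.6 and 18.4 FPKM in ONC-J and at 21.2, 23.1 and 26.2 FPKM in ONC-S, against 1.93 to 2.2 FPKM in WT. Over WT it rose 8.07-fold in ONC-F, 9.48-fold in ONC-J and, with the largest rise, 11.2-fold in ONC-S (largest adjusted p = 9.51e-10, edgeR). Jun stood at 23.8, 22.7 and 24.7 FPKM in ONC-F, at 24.8, 23.6 and 28.0 FPKM in ONC-J and at 24.4, 23.5 and 24.2 FPKM in ONC-S, against 13.4 to 15.7 FPKM in WT. Its log2 fold changes against WT were 0.73 for ONC-F, 0.83 for ONC-J and 0.74 for ONC-S (SE 0.07 each, largest adjusted p = 3.67e-06, edgeR). Creb5 stood at 0.207, 0.17 and 0.18 FPKM in ONC-F, at 0.2, 0.281 and 0.25 FPKM in ONC-J and at 0.303, 0.305 and 0.248 FPKM in ONC-S, against 0.0791 to 0.0948 FPKM in WT. The lowest of these 9 needled libraries was above the highest WT library, with log2 fold changes of 1.04 for ONC-F, 1.45 for ONC-J and 1.67 for ONC-S.

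In ONC-F, only Atf3, Jun and Creb5 were called against WT, 3 of 10 members, beside 1.03% of tested genes higher and 0.981% lower. Fosl2 stood at 0.833, 0.954 and 0.92 FPKM in ONC-F, above all 3 WT libraries, with a log2 fold change of 0.47 (SE 0.14, adjusted p = 0.0967, edgeR), which passed without WT 1 (0.61, adjusted p = 0.0386). Jund stood at 24.5, 21.9 and 26.1 FPKM in ONC-F and overlapped WT 3, with a log2 fold change of 0.29 (adjusted p = 0.118), which passed without WT 3 (0.38, adjusted p = 0.042).

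In ONC-J, 6 of 10 members rose against WT and 0 fell, beside 1.86% of tested genes higher and 1.76% lower; by edgeR, 8 members had an unadjusted p under 0.05, and DESeq2 called 6. Besides Atf3, Jun and Creb5 these were Fosl2, Jund and Fosb. Fosl2 stood at 1.23, 0.969 and 0.962 FPKM in ONC-J (log2 fold change 0.68, SE 0.13, adjusted p = 0.00541, edgeR). Jund stood at 24.6, 27.3 and 27.9 FPKM in ONC-J, all above the WT range of 18.4 to 22.1 FPKM. Its log2 fold change of 0.43 (SE 0.09, adjusted p = 0.00697, edgeR) became 0.38 with an adjusted p of 0.0526 without WT 2. Fosb stood at 0.82, 2.82 and 1.09 FPKM in ONC-J, against 0.602 to 0.711 FPKM in WT. The call of Fosb (log2 fold change 1.3, SE 0.33, adjusted p = 0.0302, edgeR) rested on ONC-J 2, without which the log2 fold change was 0.56 (adjusted p = 0.316). It was also lost without WT 1, WT 2 or WT 3, at adjusted p-values of 0.103, 0.079 and 0.0911. Junb stood at 11.4, 17.0 and 18.8 FPKM in ONC-J, above the WT maximum of 11.0 FPKM in each library, with a log2 fold change of 0.73 (adjusted p = 0.101), which passed without ONC-J 1 (0.91, adjusted p = 0.0496) and in edgeR on the 6 libraries of ONC-J and WT alone (0.73, adjusted p = 0.0177).

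In ONC-S, 6 members rose and 1 fell against WT, where 11.6% of tested genes were higher and 11.7% lower. The members that rose were Atf3, Jun, Creb5, Fosl2, Jund and Atf2, and the member that fell was Fos. Fosl2 stood at 1.34, 1.52 and 1.52 FPKM in ONC-S, against 0.572 to 0.781 FPKM in WT (log2 fold change 1.15, SE 0.13, adjusted p = 5.69e-06, edgeR). Jund stood at 34.2, 28.4 and 30.4 FPKM in ONC-S, against 18.4 to 22.1 FPKM in WT (log2 fold change 0.64, SE 0.09, adjusted p = 3.19e-05, edgeR). Atf2 stood at 9.39, 9.36 and 9.08 FPKM in ONC-S, against 7.3 to 7.51 FPKM in WT (log2 fold change 0.32, SE 0.06, adjusted p = 0.000483, edgeR). The ONC-S libraries of these 3 genes were all above WT. Fos stood at 5.36, 6.29 and 6.0 FPKM in ONC-S, against 7.89 to 18.7 FPKM in WT, and fell by 1.03 on the log2 scale (SE 0.29, adjusted p = 0.0152, edgeR). Without WT 3 that value was −0.55 (adjusted p = 0.153), and without ONC-S 1 it was −0.96 (adjusted p = 0.0517). Junb stood at 9.18, 12.6 and 19.1 FPKM in ONC-S and did not pass (log2 fold change 0.52, adjusted p = 0.12), except without ONC-S 1 (0.75, adjusted p = 0.0252).

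Across the whole design, 5 of the 10 members (Atf3, Jun, Fosb, Fosl2 and Creb5) had every one of the 12 crushed libraries above all 3 WT libraries, which was so for 2.21% of tested genes. The gap was wide for Atf3, whose lowest crushed library had 12.4 FPKM and whose highest WT library had 2.2 FPKM, and for Jun, at 21.5 and 15.7 FPKM. It was narrow for Fosl2, at 0.833 and 0.781 FPKM, and for Fosb, at 0.72 and 0.711 FPKM.

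**Figure D2:**
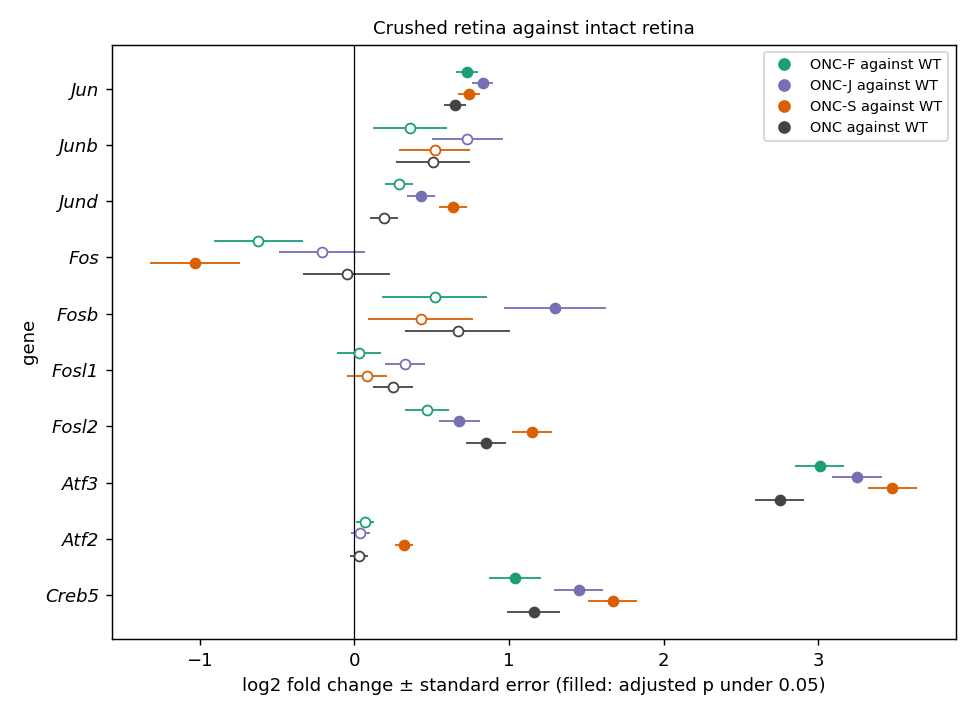
Log2 fold change against WT (horizontal axis, bars show ± 1 SE) of the 10 members in ONC-F, ONC-J, ONC-S and ONC; filled points have an edgeR adjusted p under 0.05. Atf3 lies between 2.75 and 3.48 in the 4 crushed groups, and Fos between −1.03 and −0.05.

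Each needled group was then compared with ONC, and these comparisons share the 3 ONC libraries. In ONC-S, needling and any separate handling of its libraries cannot be told apart. At GB20 no member differed from ONC by edgeR (0 of 10, beside 0.00519% of tested genes called in either direction), 1 member had an unadjusted p under 0.05, and DESeq2 called 0. That member was Fosl2, at 0.833, 0.954 and 0.92 FPKM in ONC-F against 1.27, 1.22 and 1.05 FPKM in ONC, ranges that did not overlap (log2 fold change −0.39, SE 0.13, adjusted p = 0.443). Atf3 averaged 17.1 ± 3.82 FPKM in ONC-F and 14.1 ± 2.53 FPKM in ONC (SD, n = 3 each), with overlapping ranges (log2 fold change 0.26, SE 0.13, adjusted p = 0.633, edgeR). Jun differed by 0.08 on the log2 scale (SE 0.07). Fos differed by −0.57 (SE 0.29, adjusted p = 0.64, edgeR), with overlapping ranges.

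At BL1 no member differed from ONC by edgeR either (0 of 10, beside 0.125% of tested genes), although 3 members (Atf3, Jun and Jund) had an unadjusted p under 0.05. Atf3 averaged 20.0 ± 1.38 FPKM in ONC-J and 14.1 ± 2.53 FPKM in ONC (SD, n = 3 each). The ranges did not overlap, and the log2 fold change was 0.49 (SE 0.13, adjusted p = 0.174, edgeR). DESeq2 called Atf3 alone, with adjusted p = 0.0478 when fitted on 15 libraries and adjusted p = 0.00574 on the 6 libraries of both groups. Jund averaged 26.6 ± 1.75 FPKM in ONC-J and 22.6 ± 1.23 FPKM in ONC, without overlap (log2 fold change 0.24, SE 0.09, adjusted p = 0.445, edgeR).

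At GV16, the sham point, 4 members rose and 1 fell against ONC, where 7.6% of tested genes were higher and 6.89% lower. Atf3 stood at 21.2, 23.1 and 26.2 FPKM in ONC-S, against 12.4, 17.0 and 13.0 FPKM in ONC (log2 fold change 0.73, SE 0.13, adjusted p = 0.000887, edgeR). Jund averaged 31.0 ± 2.96 FPKM in ONC-S and 22.6 ± 1.23 FPKM in ONC (log2 fold change 0.46, SE 0.09, adjusted p = 0.00158, edgeR). Atf2 averaged 9.28 ± 0.172 FPKM in ONC-S and 7.57 ± 0.149 FPKM in ONC (SD, n = 3 each; log2 fold change 0.29, SE 0.06, adjusted p = 0.00201, edgeR). In none of these 3 genes did the ONC-S and ONC ranges overlap, and their calls held without each library in turn. Creb5 rose by 0.5 on the log2 scale (SE 0.15, adjusted p = 0.0289, edgeR) and Fos fell by 0.98 (SE 0.29, adjusted p = 0.0305, edgeR), both without overlap of the libraries, but both calls were lost when single libraries were left out. The adjusted p of Creb5 was 0.105 without ONC 1, 0.0779 without ONC 3, 0.0904 without ONC-S 1 and 0.0984 without ONC-S 2. That of Fos was 0.127 without ONC 2, 0.0576 without ONC 3, 0.0916 without ONC-S 1, 0.0678 without ONC-S 2 and 0.0696 without ONC-S 3. Jun averaged 24.0 ± 0.488 FPKM in ONC-S and 22.5 ± 1.32 FPKM in ONC, with overlapping ranges (log2 fold change 0.09, SE 0.07, adjusted p = 0.422, edgeR). Rod and RPE markers moved with the same comparison. Sag was higher in ONC-S than in ONC (log2 fold change 0.39, SE 0.06, adjusted p = 0.000485, edgeR), with no overlap of the libraries, and of 13 rod markers 4 were higher and 0 lower. Of 8 RPE markers 0 were higher and 1 was lower. Their part in the values of the members was not tested.

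**Figure D3:**
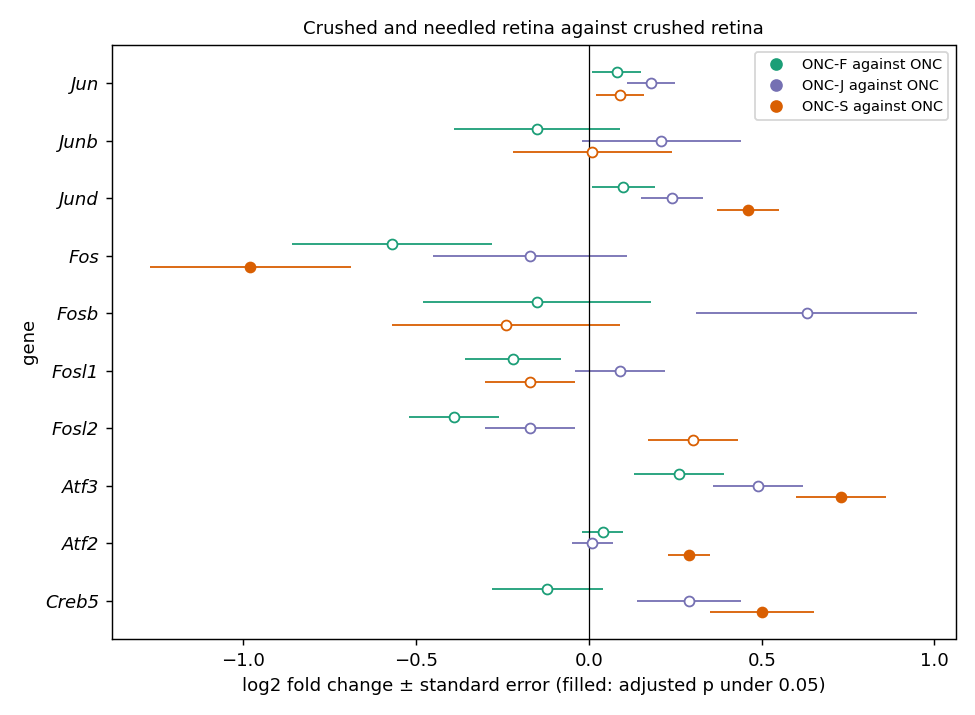
Log2 fold change against ONC (horizontal axis, bars show ± 1 SE) of the 10 members in ONC-F, ONC-J and ONC-S; filled points have an edgeR adjusted p under 0.05. The filled points are all from ONC-S: Atf3 at 0.73, Jund at 0.46, Atf2 at 0.29, Creb5 at 0.5 and Fos at −0.98.

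Set directly against the sham point, ONC-F had 5 members lower than ONC-S, beside 7.6% of tested genes lower, and ONC-J had 2, beside 6.62%. Both comparisons share the ONC-S libraries. Fosl2 was lower in both: it averaged 0.903 ± 0.0624 FPKM in ONC-F and 1.05 ± 0.151 FPKM in ONC-J, against 1.46 ± 0.104 FPKM in ONC-S (SD, n = 3 each). Its log2 fold changes against ONC-S were −0.69 (SE 0.13, adjusted p = 0.00155, edgeR) in ONC-F and −0.47 (SE 0.13, adjusted p = 0.0189, edgeR) in ONC-J. The ONC-J call was lost without ONC-J 2, ONC-J 3, ONC-S 2 or ONC-S 3, at adjusted p-values of 0.0779, 0.0895, 0.076 and 0.0625. Atf2 was also lower in both, by −0.25 (SE 0.06, adjusted p = 0.00603, edgeR) in ONC-F and −0.27 (SE 0.06, adjusted p = 0.00355, edgeR) in ONC-J on the log2 scale. These calls of Atf2, and that of Fosl2 in ONC-F, held without each library in turn. Of the 8 RPE markers, 5 were higher and 0 lower in ONC-F than in ONC-S, and also 5 and 0 in ONC-J. In either direction, 2816 of 19259 tested genes differed between ONC-F and ONC-S, and 2484 between ONC-J and ONC-S. Of the 13 rod markers, 1 was higher and 3 were lower in ONC-F than in ONC-S, and 1 and 5 in ONC-J. The part of these markers in the values of the members was not tested.

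Atf3, Jund and Creb5 were lower in ONC-F than in ONC-S, and each call depended on single libraries. The libraries did not overlap for Jund and Creb5, whereas for Atf3 the highest ONC-F and the lowest ONC-S library were level at 21.2 FPKM. For Atf3 the log2 fold change was −0.47 (SE 0.13, adjusted p = 0.0184, edgeR). Its adjusted p was 0.0743 without ONC-F 2, 0.104 without ONC-F 3, 0.0511 without ONC-S 2 and 0.0873 without ONC-S 3. For Jund it was −0.36 (SE 0.09, adjusted p = 0.00909, edgeR), and the adjusted p was 0.0622 without ONC-F 2 and 0.0556 without ONC-S 1. For Creb5 it was −0.62 (SE 0.15, adjusted p = 0.00928, edgeR), and the adjusted p was 0.0501 without ONC-F 2. Between ONC-J and ONC-S, Fos and Fosb differed by 0.81 (adjusted p = 0.0759) and 0.87 (adjusted p = 0.079) on the log2 scale. Both passed without ONC-J 1, where the values were 1.06 (adjusted p = 0.0242) for Fos and 1.17 (adjusted p = 0.0138) for Fosb. Fos also passed in edgeR on the 6 libraries of these groups alone (0.82, adjusted p = 0.0215).

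The order of the groups differed between members. For Atf3 the group means ran 23.5 FPKM in ONC-S, 20.0 FPKM in ONC-J, 17.1 FPKM in ONC-F, 14.1 FPKM in ONC and 2.1 FPKM in WT. Of these neighbours, ONC-S and ONC-J did not overlap and neither did ONC and WT, whereas ONC-J overlapped ONC-F and ONC-F overlapped ONC. The gap between ONC-S and ONC-J was narrow, with the lowest ONC-S library at 21.2 FPKM and the highest ONC-J library at 20.9 FPKM. Their direct comparison did not pass (log2 fold change −0.24 for ONC-J against ONC-S, SE 0.13, adjusted p = 0.24, edgeR). For Jun the 4 crushed groups lay between 22.5 and 25.5 FPKM, each overlapping the next, and WT lay apart at 14.3 FPKM. Fos ran the other way, with 5.88 FPKM in ONC-S, 7.67 FPKM in ONC-F, 10.3 FPKM in ONC-J, 11.6 FPKM in ONC and 12 FPKM in WT, and each group overlapped the next.

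Fos, Fosb and Junb varied between libraries of 1 group far more than Jun or Atf2. The SD of log2 CPM within groups was 0.47 for Fos, 0.48 for Fosb and 0.38 for Junb, beside medians of 0.11, 0.18 and 0.09 for tested genes whose mean count was within 1.5 times that of each. Counting error alone would give 0.069 for Fos, 0.13 for Fosb and 0.059 for Junb. Jun had an SD of 0.09 and Atf2 of 0.06, beside medians of 0.07 and 0.08, and Atf3 had 0.2, beside 0.09.

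**Figure D4:**
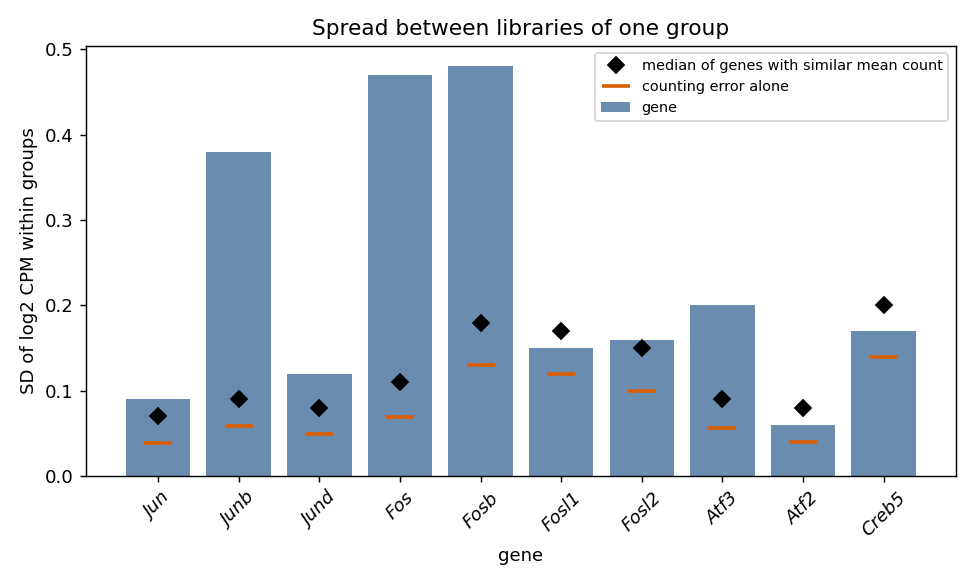
SD of log2 CPM between libraries of the same group (vertical axis, pooled over the 5 groups) for each member (bars), with the median of genes of similar mean count (diamonds) and the SD that counting error alone would give (dashes). Fos, Fosb and Junb reach 0.47, 0.48 and 0.38, above the diamonds at 0.11, 0.18 and 0.09.

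The ONC, ONC-J and WT libraries with the most Fos also had the most Egr1 and Nr4a1, other immediate early genes, of their groups, which did not hold in ONC-F and ONC-S. ONC 2, with 14.4 FPKM of Fos, had 16.4 FPKM of Egr1 and 17.1 FPKM of Nr4a1. ONC-J 3, with 13.8 FPKM of Fos, had 19.6 FPKM of Egr1 and 20.5 FPKM of Nr4a1. In ONC-F 1, which had the lowest Fos at 4.98 FPKM, Egr1 was at 8.56 FPKM and Nr4a1 at 8.53 FPKM. ONC-F 2 had the most Fos of its group, 9.6 FPKM, but less Egr1 than ONC-F 3, 9.76 FPKM against 13.1 FPKM. ONC-S 2 had the most Fos of its group, 6.29 FPKM, and the least Egr1 and Nr4a1, 6.59 and 7.51 FPKM. WT 3 had 18.7 FPKM of Fos, 20.3 FPKM of Egr1 and 17.0 FPKM of Nr4a1, whereas WT 1 and WT 2 had 4.8 to 6.39 FPKM of Egr1 and 11.4 to 12.8 FPKM of Nr4a1. Nr4a1, an orphan nuclear receptor, was also lower in ONC-S than in ONC, at 29.5 ± 2.69 CPM against 51.9 ± 7.88 CPM (SD, n = 3 each; log2 fold change −0.81, SE 0.22, adjusted p = 0.0181, edgeR).

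Junb was set beside markers of reactive glia after its values were seen. It stood at 19.1 FPKM in ONC 2, 17.0 in ONC-J 2, 18.8 in ONC-J 3 and 19.1 in ONC-S 3, and at 8.36 to 13.2 FPKM in the other 11 libraries. The summed level of 16 reactive gliosis genes was 1099 CPM in ONC 2, 917 CPM in ONC-J 2, 653 CPM in ONC-J 3 and 939 CPM in ONC-S 3. The order was not kept throughout, since ONC-S 2 had a sum of 696 CPM with Junb at 12.6 FPKM and ONC-J 3 a sum of 653 CPM with Junb at 18.8 FPKM. That sum ranged between 452 and 1099 CPM in ONC, 576 and 607 CPM in ONC-F, 597 and 917 CPM in ONC-J and 451 and 939 CPM in ONC-S, against 402 to 419 CPM in WT, with 1 gene at 0 in ONC-S 1 and in WT 1. ONC 2 also had the highest sum of 18 microglia and macrophage markers, 142 CPM, against 72.9 to 107 CPM elsewhere. The part of these cells in the Junb values was not tested.

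Levels of different members were compared per length, in FPKM. The JUN family summed to 58.6 ± 5.58 FPKM in ONC, 60.2 ± 2.33 FPKM in ONC-F, 67.8 ± 6.89 FPKM in ONC-J and 68.6 ± 4.66 FPKM in ONC-S, against 43.6 ± 4.58 FPKM in WT (SD, n = 3 each). Jun made up 38.4% ± 1.34 of that sum in ONC and 32.8% ± 0.685 in WT, and Jund 38.7% ± 4.59 in ONC and 45.4% ± 0.91 in WT. In ONC-S the share of Jund was 45.2% ± 4.72 and that of Jun 35.1% ± 1.98. Of the 1668 exon bases of Jund, 877 also belong to Gm11175 on the other strand, an antisense gene with 0 counts. Junb shares 173 exon bases with Prdx2, also on the other strand, which had 44380 counts in total against 8967 for Junb. With no strand setting given, the Junb and Jund values and the JUN sums and shares carry some uncertainty.

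The FOS family summed to 18.5 ± 2.88 FPKM in ONC, 13.6 ± 2.88 FPKM in ONC-F, 18.0 ± 4.53 FPKM in ONC-J and 12.5 ± 0.829 FPKM in ONC-S, against 17.3 ± 6.12 FPKM in WT (SD, n = 3 each). Fos made up the largest share in all 15 libraries, at 47.1% ± 1.43 in ONC-S, 61.9% ± 3.86 in ONC and 67.2% ± 8.95 in WT. Fosl2 took 11.7% ± 0.0816 of the sum in ONC-S and 6.48% ± 1.28 in ONC, against 4.11% ± 1.49 in WT. The shares of Fos and Fosl2 carry the uncertainty of Fosl1, which is part of the sum.

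**Figure D5:**
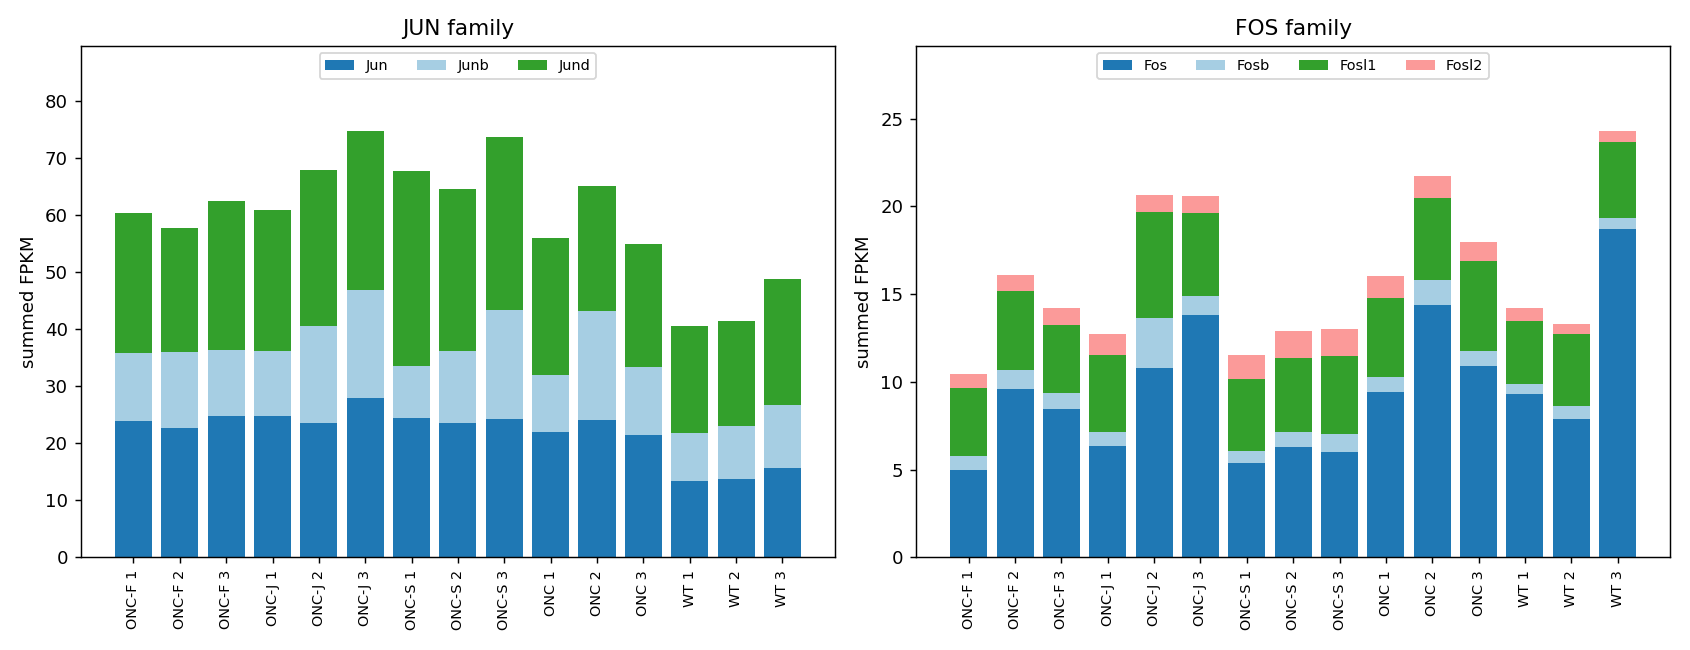
Summed FPKM (vertical axes, starting at 0) of the 3 JUN genes and the 4 FOS genes in each of the 15 libraries, with each gene as a segment of the bar. The JUN sum is 55.0 to 74.7 FPKM in the crushed libraries and 40.5 to 48.8 FPKM in WT, and the FOS sum is highest in WT 3 at 24.3 FPKM.

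The kinases that act on these factors were also compared in RNA between ONC and WT, where 0.955% of all tested genes were higher and 1.16% lower. Of 24 tested kinases and scaffolds upstream of AP-1, 1 was called in ONC against WT, and DESeq2 called 2. That gene was Mapk10, which encodes the neuronal kinase JNK3, with ONC libraries at 74.4 ± 0.271 CPM and WT libraries at 92.0 ± 4.1 CPM (log2 fold change −0.31, SE 0.06, adjusted p = 0.00412, edgeR). Of 10 phosphatases of the MAP kinases, 2 rose, Dusp8 (log2 fold change 0.23, adjusted p = 0.00934) and Dusp16 (0.34, adjusted p = 0.0152). The kinase list had a median log2 fold change of −0.02 and the phosphatase list 0.11, beside 0 for all tested genes.

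The list of 36 other bZIP factors had a median log2 fold change of 0.07 in ONC against WT. Of these, 3 were called, all of them higher, beside 0.955% of tested genes. They were Atf5, a relative of Atf4 (33.3 ± 0.715 CPM in ONC and 14.6 ± 0.413 CPM in WT, log2 fold change 1.19), Ddit3, which encodes CHOP of the endoplasmic reticulum stress response (67.8 ± 2.55 and 37.1 ± 1.13 CPM, 0.87), and Cebpb (4.47 ± 0.615 and 2.04 ± 0.272 CPM, 1.12), with a largest adjusted p of 0.00288. Atf4, the factor of the integrated stress response that can switch on Atf3, averaged 247 ± 14.3 CPM in ONC, and its log2 fold change against WT was 0.19 (SE 0.09, adjusted p = 0.455, edgeR). The paper, which used DESeq2, lists Atf4 as upregulated after injury with the same log2 fold change, so the 2 calls differ. Of 19 other immediate early genes, 1 rose in ONC against WT, Egr3 (2.94 ± 0.516 CPM in ONC and 1.22 ± 0.459 CPM in WT, log2 fold change 1.29, SE 0.28, adjusted p = 0.0157, edgeR), and the median was 0.1.

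Of 25 genes reported as targets of c-Jun or ATF3 in injured neurons or other cells, 15 rose in ONC against WT, beside 0.955% of tested genes. The list had a median log2 fold change of 0.91. The list includes genes chosen with injured neurons in mind, so its direction is not independent evidence. Ecel1, an endopeptidase of injured neurons, had 33.3 ± 2.1 CPM in ONC and 0.332 ± 0.216 CPM in WT (log2 fold change 6.63, SE 0.37, adjusted p = 1.91e-09, edgeR). Chac1, an enzyme that degrades glutathione, had 14.9 ± 0.987 CPM in ONC and 1.48 ± 0.365 CPM in WT (log2 fold change 3.32, SE 0.17, adjusted p = 8.24e-10, edgeR). Tnfrsf12a, the receptor of TWEAK, had 27.5 ± 0.819 CPM in ONC and 5.13 ± 0.633 CPM in WT (log2 fold change 2.41, SE 0.15, adjusted p = 7.63e-09, edgeR). Sprr1a, a small proline-rich protein known from regrowing axons, had 198, 196 and 190 counts in ONC and 0 in each WT library, so it was at least 226-fold higher in ONC, against a floor of 3 counts over the WT group.

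In ONC-F against ONC, edgeR called 0 genes of these 5 lists and so did DESeq2; at an unadjusted p under 0.05 there were 2 bZIP factors, 2 kinases, 0 phosphatases, 2 immediate early genes and 6 reported targets. In ONC-J against ONC, edgeR called 0, DESeq2 called 1 phosphatase and 1 reported target, and the unadjusted counts were 4, 2, 4, 1 and 4 in the same order. The share of all tested genes at that threshold is not given here, so these unadjusted counts are not read as changes of the lists. In ONC-S against ONC, where 7.6% of tested genes were higher and 6.89% lower, 6 of 36 other bZIP factors rose and 3 fell, among them Atf4 (337 ± 20.8 CPM in ONC-S and 247 ± 14.3 CPM in ONC, log2 fold change 0.45, adjusted p = 0.00261) and Crebzf (192 ± 6.79 and 234 ± 3.09 CPM, −0.28, adjusted p = 0.0011). Of 24 kinases 2 rose, near the share of all tested genes, Map3k13, which encodes the DLK relative LZK (log2 fold change 0.36, adjusted p = 0.000475), and Map3k5, which encodes ASK1 (0.33, adjusted p = 0.00174), and 1 fell. Of 10 phosphatases 4 rose, Dusp8 among them (0.27, adjusted p = 0.000873), and 1 fell, Dusp6, which acts on ERK (−0.52, adjusted p = 0.00959). Of 25 reported targets 2 rose, also near that share, Ddit3 (0.29, adjusted p = 0.00891) and Sesn2 (0.34, adjusted p = 0.0229).

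The genes whose log2 CPM over the 15 libraries was most like that of Atf3 were Asns (Pearson r = 0.986), Gm47595, Gm13889 and Gm29374 (0.982 each) and Psat1 (0.981). Asns makes asparagine and Psat1 belongs to serine synthesis. Jun was most like Ecel1 and Gm47595 (0.944 each), Mmp12 and Rhoq (0.943 each) and Cox6a2 (0.937), and Fos was most like Nr4a1 (0.927), Pdp1 (0.894), Prkra and Tmem8 (0.855 each) and Slc41a1 (0.85). The correlations are descriptions over 15 libraries of 5 groups that differ in mean, and they carry no p.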

How the data were processed

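RNA was measured in 15 retinal libraries, and groups were taken from the treatment in the labels. The authors made the counts from paired-end reads of poly-A RNA by aligning them to mm10 with HISAT2 2.0.5 and counting fragments per gene with featureCounts, and deposited them without normalization. The authors computed the deposited FPKM values from gene length and library size, and these were used for levels and not for tests. The annotation release, counting options and strand setting are not given in the sources used here. Gene positions are from GENCODE M21.

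Low genes were removed with filterByExpr, given the 5 groups, at a minimum count of 10 and a minimum total of 15, and 19259 genes stayed. They were fitted over all 15 libraries with TMM library sizes and the quasi-likelihood test of edgeR 4.0.16 (R 4.3.3; 10 residual degrees of freedom), and a gene was called at a Benjamini-Hochberg adjusted p under 0.05, with all tested genes in the adjustment. Log2 CPM used a prior count of 2. The fit was tested on simulated data. Python 3.11.15, pandas 2.3.3, numpy 2.4.6 and matplotlib 3.10.9 were used for summaries and plots.

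The members and gene lists were chosen with earlier results of these data known. All 10 members are reported in every comparison. Counts at an unadjusted p under 0.05 are not calls, and the share of all tested genes at that threshold is not given. From each other list, up to 4 called genes with the smallest p in ONC against WT and up to 2 in each needled group against ONC are named, and for Atf3, Jun and Fos the 5 genes with the most similar log2 CPM. Atf4, Egr1, Nr4a1 in single libraries and the genes that overlap members were chosen after their values were seen. Alternative settings were a replicate block, DESeq2 1.42.0 on 15 or on 6 libraries, edgeR restricted to 6 libraries, each library left out in turn, and, for the filter, none or a minimum of 1 CPM in 3 or more libraries. Counting error is the Poisson error of the mean count.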

Additional observations from a re-analysis of the deposited data

Results flagged for a closer look

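These 7 results stood out because 2 needled groups differed in the direct test between them. All 7 involve ONC-S, where needling and any separate handling of the libraries cannot be told apart. No member was called in ONC-F or ONC-J against ONC, and Fosl2 was not called in ONC-S against ONC (adjusted p = 0.125, edgeR). The calls of Atf3, Jund and Creb5 in ONC-F, and of Fosl2 in ONC-J, were lost when single libraries were left out. Against ONC-S, ONC-F had lower levels of Atf3 (log2 fold change −0.47), Jund (−0.36), Fosl2 (−0.69), Atf2 (−0.25) and Creb5 (−0.62), and ONC-J had lower levels of Fosl2 (−0.47) and Atf2 (−0.27), all at an edgeR adjusted p under 0.05. Over all tested genes, ONC-F differed from ONC-S in 2816 genes and ONC-J from ONC-S in 2484.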

How the results depend on the processing

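Of 1170 alternative values for the 90 fold changes of members, 1085 kept both their direction and their side of the threshold, 31 no longer passed, 29 newly passed and 25 changed sign, of which 0 passed the test in either fit. Counts of members called in ONC against WT stayed between 4 and 6. Without the low-count filter 7 members passed in ONC-F against WT, 1 in ONC-F against ONC, 2 in ONC-J against ONC and 5 in ONC-J against ONC-S, and the cause was not tested. DESeq2 on 15 and on 6 libraries called 1 member in ONC-J against ONC. Leaving out 1 library gave 3 to 4 members in ONC-S against ONC, 2 to 5 in ONC-F against ONC-S and 1 to 4 in ONC-J against ONC-S. Libraries of the same replicate number correlated at −0.09 to 0.11 in their deviations from group means, and the labels tie no number to a repeat of the experiment, so the numbers were not used as pairs. In ONC-F against ONC each of the 3 numbers correlated best with its own, a hint from the data and not from the design. With the replicate block, 10 genes were called in ONC-F against ONC, against 1 without it, and 48 in ONC-J against ONC, against 24. Also with the block, 4 members passed in ONC-J against ONC-S, Fos (0.77, adjusted p = 0.0293, edgeR) and Fosb (0.74, adjusted p = 0.0486, edgeR) newly so. Junb passed in ONC-J against WT (0.71, adjusted p = 0.0295, edgeR) and had a log2 fold change of −0.01 in ONC-S against ONC. Leaving out 1 library turned the sign of these log2 fold changes, none of which passed the test. For Fos they ran between −0.28 and 0.43 in ONC against WT, −0.47 and 0.26 in ONC-J against WT, and −0.42 and 0.08 in ONC-J against ONC. For Fosl1 they ran between −0.05 and 0.09 in ONC-F against WT and −0.07 and 0.18 in ONC-J against ONC. For Junb they ran between −0.33 and 0.18 in ONC-F against ONC, −0.33 and 0.33 in ONC-S against ONC, −0.38 and 0.18 in ONC-F against ONC-S, and −0.02 and 0.54 in ONC-J against ONC-S. For Fosb they ran between −0.29 and 0.16 in ONC-F against ONC, −0.11 and 0.93 in ONC-J against ONC, −0.4 and 0.06 in ONC-S against ONC, and −0.03 and 0.25 in ONC-F against ONC-S. For Atf2 in ONC-J against ONC they ran between −0.03 and 0.06, and for Jun in ONC-F against ONC-S between −0.05 and 0.02. Fosb and Creb5 had the fewest counts of the members, 38 to 388 per library, which limits their precision.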
